A study of Mus musculus with 6 samples.

Results

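The transforming growth factor beta superfamily is represented here by 8 ligand genes, Bmp2, Bmp4, Bmp5, Bmp7, Bmp10, Tgfb1, Tgfb2 and Tgfb3, and by the inhibitory Smad genes Smad6 and Smad7. The 10 genes were taken by symbol from a table of 48709 genes measured in embryonic mouse hearts, and all 10 were found there. The table holds 6 libraries of polyA RNA from hearts of the C57BL6/J strain, 3 per genotype. Controls were littermates with floxed alleles of Rbpms and Rbpms2 (RBPMS flox/flox RBPMS2 flox/flox), which encode a pair of RNA-binding proteins. Double knockouts carried the same floxed alleles in both genes plus a Cre transgene (XML Cre pos), and the series describes the loss as specific to cardiomyocytes. No group carried Cre alone, so effects of Cre and of gene loss cannot be told apart. The sources used here give neither the promoter that drives Cre, nor the embryonic stage, nor whether each library came from 1 animal. The p-values therefore reflect the scatter among libraries, which may be technical in part. Sex-linked genes, given below, set library 3 of each genotype apart from libraries 1 and 2, which may still share an animal.

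BMP and TGF-beta ligands are secreted dimers that bind pairs of type I and type II serine/threonine kinase receptors. BMP receptors phosphorylate Smad1, Smad5 and Smad9, TGF-beta receptors phosphorylate Smad2 and Smad3, and both classes enter the nucleus with Smad4. Smad6 and Smad7 are induced by the signal and feed back on it, Smad6 mainly on the BMP branch and Smad7 on both branches. In the embryonic heart Bmp10 is made by trabecular and atrial myocardium, Bmp2 marks the myocardium of the atrioventricular canal, and Bmp2 and Tgfb2 take part in forming the endocardial cushions.

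Per library, the normalised read counts added up to 19770390 to 20215282. They are given below as mean ± SD with n = 3 libraries per genotype. A fold change is the knockout mean less the control mean of log2(value + 1), ± SE. It was tested with limma over 26747 genes and counts as passed at a Benjamini-Hochberg adjusted p under 0.05. Intervals are 95% intervals of single genes, not adjusted for the number of genes. The targeted gene Rbpms was at 3551 to 3956 in the control libraries against 670 to 721 in the knockout libraries. Rbpms2 was at 2444 to 2716 against 1257 to 1676, so each knockout library lay below each control library. The libraries numbered 3 had a male pattern of sex-linked genes in both genotypes (Xist at 6 and 20, against 19501 to 25229 in the other libraries). Double knockout 3 also stood apart by the relation of its deviations to GC content (rho of -0.58 across genes). Double knockouts 1 and 2 were at 0.1 and -0.17, and controls 1 to 3 at 0.27, 0.2 and 0.39. Each control thus lay above each knockout, so this trend ran with genotype. Defining markers of other organs were near 0, with Alb, Sftpc and Nkx2-1 at 1 or less in every library, while the cardiomyocyte gene Tnnt2 was at 44660 to 52093. In whole hearts, fewer cells of a type and less RNA per cell cannot be told apart.

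None of the 10 genes passed the threshold, in either direction, where 4.86% of all tested genes did (8.36% of abundant protein-coding genes, those averaging 100 or more). The count was also 0 with voom weights and without the robust option of limma, where 1.31% of all genes passed. At an unadjusted p under 0.05 there were 3 of the 10, Bmp2, Tgfb3 and Smad7, against 18.7% of all tested genes. The same 3 genes were the ones whose genotypes did not overlap, all with lower values in the knockouts, against 21.7% of all tested genes and 33.0% of the abundant protein-coding ones. The median log2 fold change of the 10 was -0.08, beside 0.02 over all tested genes, with 6 below 0 and 4 above. Single libraries decided this for the 2 genes with the greatest differences in either direction: Bmp2 passed when double knockout 1 or 3 was left out, and Bmp10 when double knockout 2 was.

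**Figure D1:**
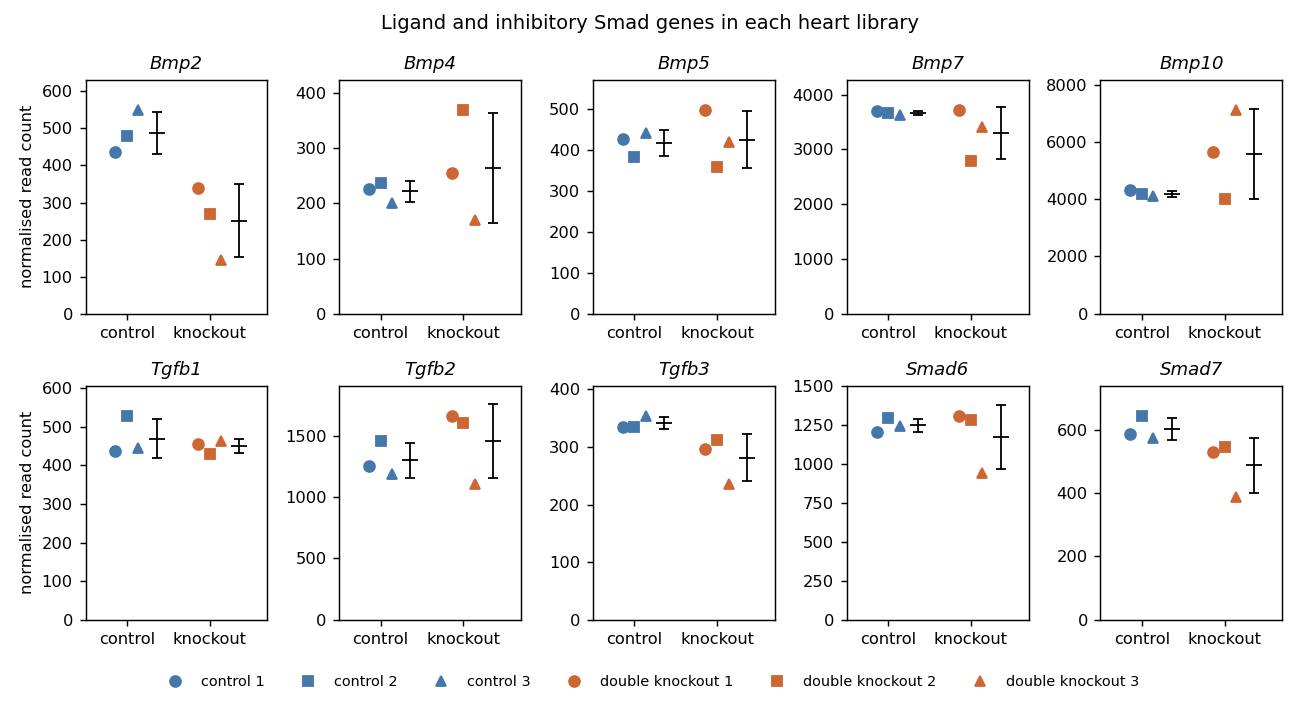
Normalised read count (y axis, from 0) of each of the 10 genes in the 3 control and 3 double knockout libraries, with the mean and SD of each genotype in black. Knockout libraries lie below every control for Bmp2, Tgfb3 and Smad7. They spread most for Bmp2, Bmp4 and Bmp10 (coefficients of variation among knockouts of 39.5%, 38.0% and 28.0%).

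Promoter windows are printed for 3 of these genes, so that the sequence at their starts can be read beside their values. They are the BMP and the TGF-beta ligand with the highest control mean per kb of exon and an inhibitory Smad, and each window runs from 250 bases before to 50 after the gene's start (RefSeq, GRCm38.p6). Capitals mark matches, on either strand, to 7 short motifs spelled out below: a GATA site, a TATA box, a TEAD site, an E-box and 3 forms of SMAD site. The matches do not overlap each other, and the palindromic SMAD site was added after the sequences were read. The windows lie at chr6:87428744-87429043 (plus strand), chr1:186705940-186706239 (minus strand) and chr9:64022010-64022309 (minus strand).
Bmp10: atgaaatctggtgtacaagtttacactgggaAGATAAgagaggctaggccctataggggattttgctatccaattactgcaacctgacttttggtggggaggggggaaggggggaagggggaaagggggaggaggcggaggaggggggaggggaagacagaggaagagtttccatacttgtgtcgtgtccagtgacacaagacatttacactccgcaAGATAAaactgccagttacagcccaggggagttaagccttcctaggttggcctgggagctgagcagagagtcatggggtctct
Tgfb2: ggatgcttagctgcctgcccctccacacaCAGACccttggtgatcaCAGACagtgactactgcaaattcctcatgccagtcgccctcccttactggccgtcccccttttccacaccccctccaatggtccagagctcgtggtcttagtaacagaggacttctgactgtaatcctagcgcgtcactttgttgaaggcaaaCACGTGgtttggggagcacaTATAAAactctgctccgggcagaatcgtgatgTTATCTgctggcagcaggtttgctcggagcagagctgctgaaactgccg
Smad6: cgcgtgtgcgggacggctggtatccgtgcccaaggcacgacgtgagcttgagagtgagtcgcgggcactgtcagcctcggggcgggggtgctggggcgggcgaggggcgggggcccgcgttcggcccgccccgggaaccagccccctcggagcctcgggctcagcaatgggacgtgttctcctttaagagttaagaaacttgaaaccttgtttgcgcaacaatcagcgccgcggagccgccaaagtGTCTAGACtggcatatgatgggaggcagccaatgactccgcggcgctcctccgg
The GATA site AGATAA occurs 2 times in the Bmp10 window, starting at positions -219 and -33 from the gene's start, and 1 time in that of Tgfb2, just past the start on the strand opposite to the one printed. Of all 32851 windows of this length, 11.2% hold that site. The Tgfb2 window also has the TATA box letters TATAAA at position -31, as do 13.6% of windows. It has the E-box CACGTG at position -51, as do 7.15% of windows. The short SMAD site GTCTG lies there 2 times on the opposite strand, at positions -221 and -204, and 49.6% of windows hold it. The Smad6 window has the palindromic SMAD site GTCTAGAC across the start, from position -4, which 0.213% of windows hold. Of the ligand and inhibitory Smad genes, 6 had their windows scanned: Bmp4, Bmp5, Bmp10, Tgfb1, Tgfb2 and Smad6. Smad7 was left out of the scan, and no window was at hand for Bmp2, Bmp7 and Tgfb3. The TEAD site CATTCC, in 14.7% of all windows, has no match in the 6 scanned windows. Nor has the GC-rich SMAD site GGCGCC, which is in 11.9% of all windows. A match is a description of letters, and no binding was measured in these libraries.

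Divided by the length of each gene's exons, levels in the controls spanned an order of magnitude. Bmp10 (934 ± 24.1 normalised read counts per kb of exon) and Bmp7 (912 ± 9.51) were highest, with control ranges that overlapped. Smad6 (389 ± 13.5) and then Tgfb2 (224 ± 24.5) followed, each apart from its neighbours in the order. Bmp2 (137 ± 16.0) and Smad7 (133 ± 7.86) overlapped. Bmp5 (103 ± 7.76), Tgfb3 (101 ± 3.07), Bmp4 (98.6 ± 8.27) and Tgfb1 (93.1 ± 9.93) were lowest, and their control ranges overlapped. Exon length here counts all annotated transcripts. With the longest transcript in its place Tgfb1 stood at 182 per kb, above Bmp2 at 137, and Bmp7 at 999, above Bmp10 at 934, so these orders depend on the transcript in use.

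**Figure D2:**
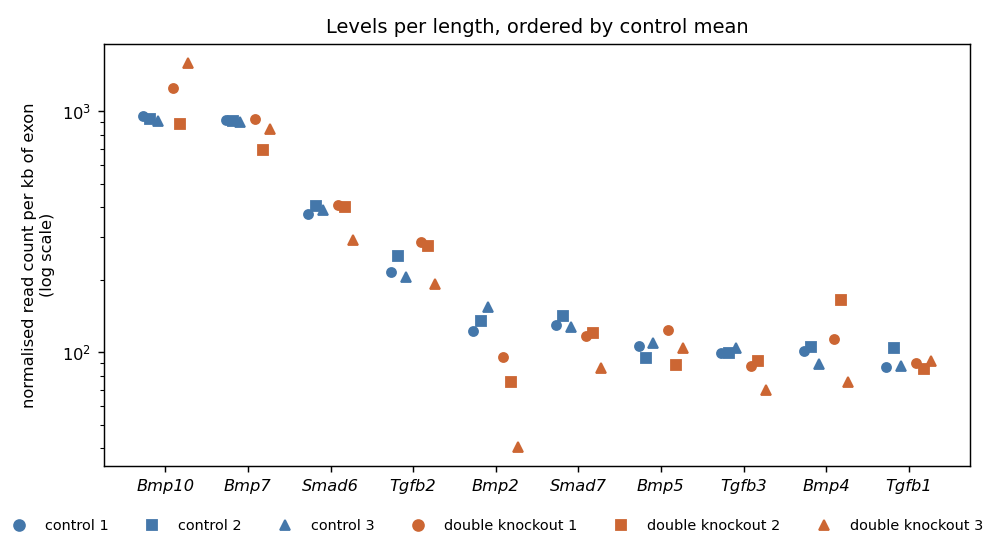
Normalised read count per kb of exon (y axis, log scale) for the 10 genes, ordered by control mean, with 1 symbol per library. Bmp10 and Bmp7 lie at 934 and 912 in the controls and the 4 lowest genes between 93.1 and 103, and the knockout symbols of Bmp2 fall below its controls.

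Among the BMP ligands, Bmp2 (ENSMUSG00000027358, chromosome 2, 133552159 to 133562885, plus strand, mm10) differed most. Its values, in the order of the library numbers as throughout, were 436, 479 and 549 in the controls against 340, 269 and 144 in the knockouts. The genotypes did not overlap, and the knockout libraries reached 69.7%, 55.1% and 29.5% of the control mean. The means were 488 ± 57.0 and 251 ± 99.2, a log2 fold change of -1.04 ± 0.35 with an interval of -1.95 to -0.12 (limma adjusted p = 0.217). As a ratio, this interval runs from 0.259-fold to 0.918-fold. Without double knockout 3 the difference was -0.68 (limma adjusted p = 0.0213), and without double knockout 1 it was -1.30 (limma adjusted p = 0.0214). Over the 6 fits that left out 1 library the adjusted p ran from 0.0213 to 0.439, and without both libraries numbered 3 the difference was -0.59 (limma adjusted p = 0.251).

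Bmp10 (ENSMUSG00000030046, chromosome 6, 87428994 to 87437677, plus strand), a growth factor needed for trabecular growth, was nearly constant among controls and scattered among knockouts. The controls had 4312, 4169 and 4100 and the knockouts 5635, 3993 and 7111. Knockouts 1 and 3 lay above every control and knockout 2 below every control. The coefficient of variation was 2.58% in controls and 28.0% in knockouts. The means were 4194 ± 108 and 5579.7 ± 1559.7, a log2 fold change of 0.37 ± 0.19 with an interval of -0.09 to 0.84 (limma adjusted p = 0.367). Without double knockout 2 it was 0.59 (limma adjusted p = 0.0017). With no filter on low values, which changes the moderation of variances and not the difference, limma gave an adjusted p of 0.0261.

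Bmp7 (ENSMUSG00000008999, chromosome 2, 172868012 to 172940321, minus strand), a broadly acting BMP, held 3702, 3671 and 3626 in controls and 3717, 2785 and 3405 in knockouts. Only knockout 1 reached the controls. The difference was -0.16 ± 0.10, with an interval of -0.36 to 0.04 (limma adjusted p = 0.392). Bmp4 (ENSMUSG00000021835, chromosome 14, 46383520 to 46390669, minus strand), known from the outflow tract, held 227, 237 and 201 in controls and 255, 369 and 169 in knockouts. Its knockout libraries included both the highest and the lowest value of the 6. The difference of 0.19 ± 0.26 (limma adjusted p = 0.749) turned to -0.09 without double knockout 2. Bmp5 (ENSMUSG00000032179, chromosome 9, 75775364 to 75900310, plus strand), a close relative of Bmp7, had 426, 381 and 441 in controls and 496, 358 and 418 in knockouts. These ranges overlapped, and the interval of -0.23 to 0.26 runs from 0.854-fold to 1.20-fold (limma adjusted p = 0.954).

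Of the TGF-beta ligands, Tgfb3 (ENSMUSG00000021253, chromosome 12, 86056745 to 86079041, minus strand) held 335, 335 and 353 in controls and 296, 312 and 235 in knockouts, with no overlap. Its difference was -0.29 ± 0.12, with an interval of -0.54 to -0.04 (limma adjusted p = 0.188), and with double knockout 3 left out it was -0.17 (limma adjusted p = 0.488). Tgfb2 (ENSMUSG00000039239, chromosome 1, 186622792 to 186705989, minus strand), the most abundant of the 3 per kb of exon, had 1253, 1457 and 1184 in controls and 1656, 1603 and 1109 in knockouts. Knockouts 1 and 2 lay above every control and knockout 3 below, with a difference of 0.15 ± 0.14 (limma adjusted p = 0.621). Tgfb1 (ENSMUSG00000002603, chromosome 7, 25687002 to 25705077, plus strand), a regulator of immune cells and matrix, had 437, 527 and 444 in controls and 456, 429 and 463 in knockouts. The groups overlapped, and the interval of -0.27 to 0.16 runs from 0.828-fold to 1.11-fold (limma adjusted p = 0.799).

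Among the inhibitory Smads, which the pathway itself induces, Smad7 (ENSMUSG00000025880, chromosome 18, 75367529 to 75395935, plus strand) held 588, 642 and 575 in controls and 530, 545 and 388 in knockouts. Each knockout lay below each control, and the difference was -0.32 ± 0.12, with an interval of -0.56 to -0.07 (limma adjusted p = 0.140). It was -0.16 without double knockout 3 and -0.21 with each library's trend with GC content and transcript length removed (limma adjusted p = 0.463 and 0.246). Smad6 (ENSMUSG00000036867, chromosome 9, 63953076 to 64022059, minus strand) held 1207, 1293 and 1244 in controls and 1305, 1279 and 939 in knockouts. Knockouts 1 and 2 lay at the level of the controls and knockout 3 below them. The difference of -0.10 ± 0.11 (limma adjusted p = 0.657) turned to 0.05 without double knockout 3 and to 0.02 with the GC and length trend removed.

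**Figure D3:**
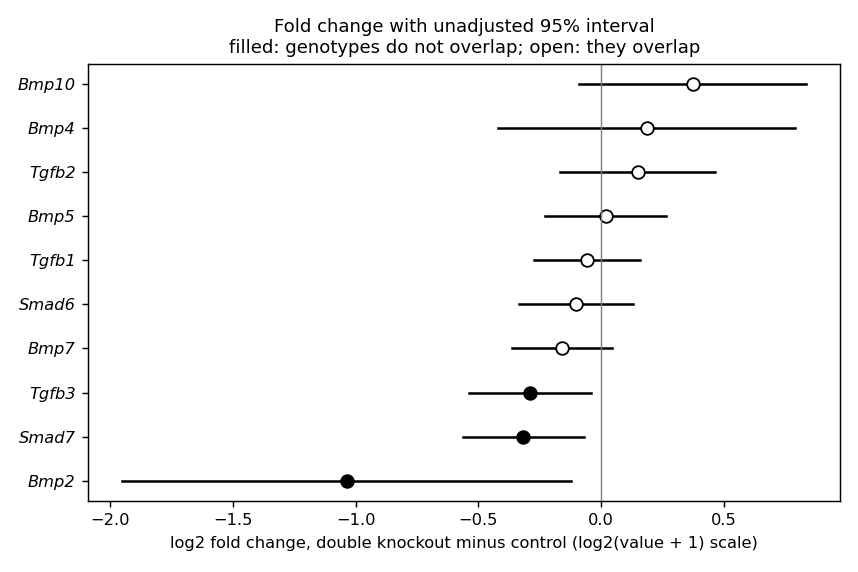
Log2 fold change of each of the 10 genes (point, x axis) with its unadjusted 95% interval (line), double knockout minus control; filled points mark genes whose genotypes do not overlap. The intervals of Bmp2, Smad7 and Tgfb3 lie below 0 and those of the other 7 genes cross it.

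The spread among knockouts was a feature of most of these genes. In 9 of the 10, the SD of the log2 values was larger among knockouts than among controls, the exception being Tgfb1, and the same held for 67.5% of the abundant protein-coding genes. Double knockout 3 was the lowest of the 6 libraries for 6 of the 10 genes (Bmp2, Bmp4, Tgfb2, Tgfb3, Smad6 and Smad7), against 23.5% of those abundant genes, and the highest for 1 (Bmp10), against 26.1%. Double knockout 2 was the highest or lowest library for 5 of the 10, against 37.2%. Knockouts 2 and 3 lay on opposite sides of the control mean for 5 of the 10, against 26.8%. No member passed the threshold, so no gene was sought whose pattern across libraries resembled one.

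Of the other genes of the pathway, 9 lists with 130 genes were examined, of which 129 were tested. In them 10 genes passed, 7.75% of those tested, beside 4.86% of all tested genes and 8.36% of the abundant protein-coding ones. Of the 10, 7 rose and 3 fell, where 2.31% of all tested genes were called higher and 2.55% lower. Without the robust option 1 of the 10 calls was left (Ctgf), and 0 were left without both libraries numbered 3. With the GC and length trend removed 13 genes passed (11 higher and 2 lower), and with voom weights 11 (9 higher and 2 lower). Of 17 tested other ligands of the family none passed. The most abundant were Gdf11, with 502 ± 32.1 in controls and 406 ± 27.2 in knockouts (limma adjusted p = 0.0896), and Gdf6, with 233 ± 63.4 and 247 ± 88.5 (limma adjusted p = 0.929). Of 13 receptor genes 0 rose and 1 fell, with a median of 0.11. The faller was Tgfbr3, betaglycan, a coreceptor that presents TGF-beta2. It had 3320, 3166 and 3079 in controls and 2430, 2034 and 2614 in knockouts, with no overlap. The difference was -0.44 ± 0.09 (limma adjusted p = 0.00899), a call lost without control 1 or control 3 (limma adjusted p up to 0.0965).

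None of the 6 receptor-regulated and common Smads passed. Smad1, of the BMP branch and named after its values were seen, had 341, 363 and 319 in controls and 432, 419 and 449 in knockouts, with no overlap. Its difference was 0.35 ± 0.10 (limma adjusted p = 0.0550), and with the GC and length trend removed it passed at 0.41 (limma adjusted p = 0.00987). Smad5, which carries BMP signals, was at 2386 ± 147 in controls and 2882 ± 259 in knockouts (limma adjusted p = 0.0964), and Smad3, of the TGF-beta branch, at 1689 ± 14.8 and 1480.0 ± 143 (limma adjusted p = 0.241). Among 18 extracellular and membrane antagonists 1 rose and 0 fell. This was Sost, sclerostin, an inhibitor of Wnt signalling related to BMP antagonists, at 108, 93 and 89 in controls and 152, 159 and 132 in knockouts. Its difference of 0.61 ± 0.15 (limma adjusted p = 0.0238) passed in 1 of the 6 fits without 1 library (limma adjusted p up to 0.141, lost without control 1, 2 or 3 or double knockout 1 or 2). Among 18 genes of latent TGF-beta storage and activation 1 rose and 1 fell. Furin, a protease that cleaves ligand precursors, had 2598, 2853 and 2706 in controls and 2266, 1814 and 1625 in knockouts. It fell by 0.53 on the log2 scale (SE 0.10, limma adjusted p = 0.00519), a call lost without double knockout 3 (limma adjusted p = 0.0668). Itgav, the alpha-v integrin that takes part in TGF-beta activation, rose from 2138 ± 143 to 2731 ± 297 (limma adjusted p = 0.0371), a call lost without control 1 or 3 or double knockout 1 or 3 (limma adjusted p up to 0.229). Of 14 intracellular modulators none passed. The kinase gene Map3k7 was at 2622 ± 113 and 2970.0 ± 112 (limma adjusted p = 0.244) and the corepressor gene Ski at 2436 ± 202 and 2352 ± 196 (limma adjusted p = 0.809).

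**Figure D4:**
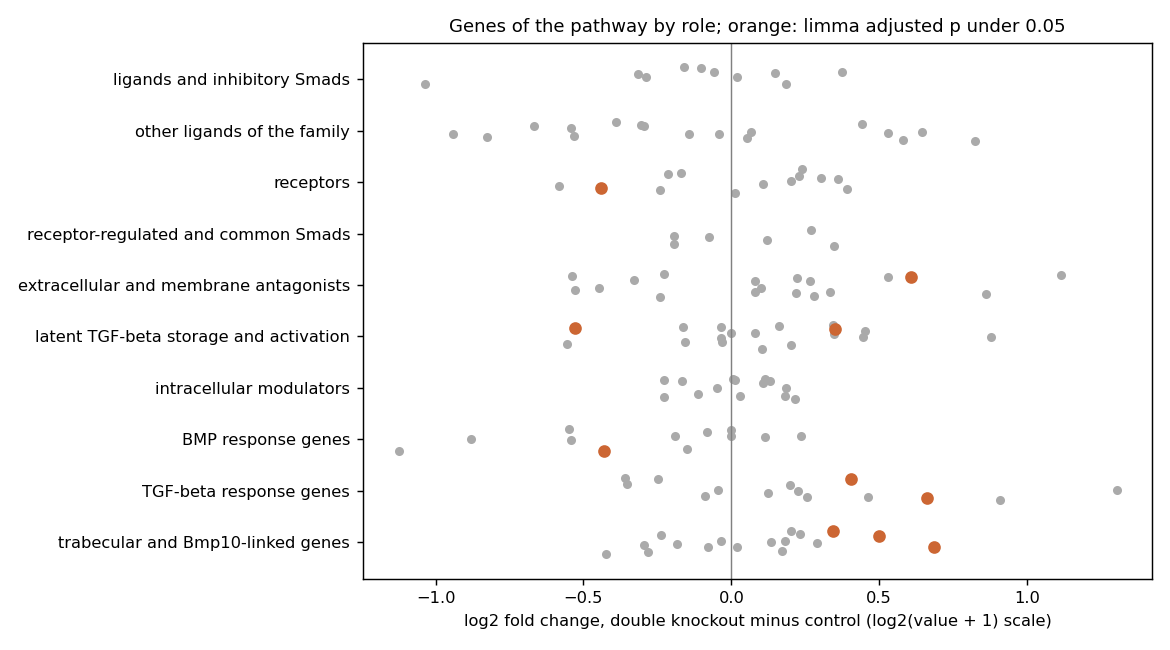
Log2 fold change (x axis) of every tested gene in the 10 lists by role (y axis, with vertical jitter); orange points passed limma's adjusted p under 0.05. The ligands and inhibitory Smads have no orange point, and 10 points are orange in the other lists, 7 to the right of 0 and 3 to the left.

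Genes known to respond to BMP signals were looked at beside their ligands. Of 12 tested, 0 rose and 1 fell, with a median of -0.17. Over all tested genes 2.31% were called higher and 2.55% lower, with a median of 0.02. Of the abundant protein-coding genes 8.36% were called in either direction. The faller was Hey1, a Notch and BMP target, at 290, 277 and 353 in controls and 210, 225 and 245 in knockouts (-0.43 ± 0.12, limma adjusted p = 0.0491). This call was lost with each of the 6 libraries left out in turn (limma adjusted p up to 0.312). The general BMP target Id1, picked with its values in view, had 720, 704 and 768 in controls and 653, 863 and 504 in knockouts, with overlapping groups (limma adjusted p = 0.663). The transcription factor genes Msx2, Tbx2 and Tbx3, known with Bmp2 from the atrioventricular canal and described here after their values were seen, did not pass. Msx2 was at 195, 132 and 169 in controls and 112, 85 and 43 in knockouts (-1.13 ± 0.35, limma adjusted p = 0.137). Tbx2 was at 359, 409 and 401 in controls and 296, 278 and 114 in knockouts (-0.88 ± 0.43, limma adjusted p = 0.376). Neither overlapped between genotypes. Tbx3 was at 328, 311 and 363 in controls and 330, 215 and 168 in knockouts, with overlapping groups (limma adjusted p = 0.206). Other genes of the list, also picked with their values in view, had knockout 2 as the highest of the knockouts, such as Msx1 at 131, 191 and 64 and Id3 at 1635, 2266 and 1327 in knockouts 1 to 3. Msx2 passed without double knockout 1 (-1.42, limma adjusted p = 0.0142), as did Tbx3 (-0.81, limma adjusted p = 0.00702). That library held the highest knockout value of both genes, so leaving it out could only enlarge their difference. Their other fits without 1 library are not given here. Bmper, a secreted BMP-binding protein also chosen after its values were seen, was at 326, 359 and 336 in controls and 276, 308 and 150 in knockouts (-0.54 ± 0.26, limma adjusted p = 0.325).

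**Figure D5:**
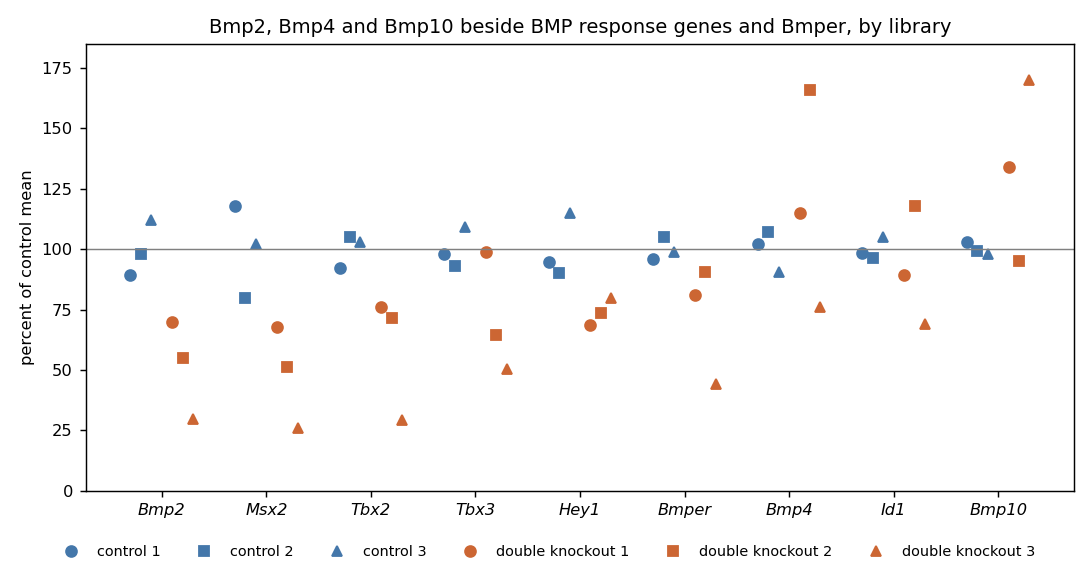
Percent of the control mean (y axis) in each library for Bmp2, Msx2, Tbx2, Tbx3, Hey1, Bmper, Bmp4, Id1 and Bmp10. Double knockout 3 lies at 29.5% for Bmp2, 26.0% for Msx2 and 29.3% for Tbx2, and at 170% for Bmp10. Msx2, Tbx2, Tbx3, Bmper and Id1 were picked with their values in view. Among BMP response genes not shown, double knockout 3 lies at 36.7% for Msx1, 73.7% for Id3 and 82.8% for Atoh8. It lies at 97.2% for Gata2, 108% for Id2 and 109% for Id4.

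Marker levels of the regions and cells that make these ligands also differed among libraries, and their part in the results was not tested. The counts below stand beside 2.31% of all tested genes called higher and 2.55% called lower. Of the abundant protein-coding genes 8.36% were called in either direction. Of 8 atrial markers 4 fell and 0 rose (Myl7, Nr2f1, Stard10 and Kcnj5), and the summed level of the list was 65628 to 82535 in controls and 52721 to 60337 in knockouts. The rest of the list did not pass. In it Sln was at 16 or less in every library and Dkk3 was higher (0.33, limma adjusted p = 0.15). Myl4 and Nr2f2 were lower (-0.27 and -0.14, limma adjusted p = 0.117 and 0.557). Of 6 outflow tract and second heart field markers none passed, and 3 of them (Isl1, Fgf8 and Tlx1) were at 14 or less in every library. The sum of the 6 was 794 to 855 in controls and 688, 860 and 408 in knockouts 1 to 3. Of 8 cushion mesenchyme and fibroblast markers none passed, with sums of 16294 to 20993 in controls and 20247, 28744 and 15166 in knockouts 1 to 3. Of 8 epicardial markers 1 rose (Krt19), with sums of 6506 to 7906 and 6685 to 8314. Of 9 endocardial and endothelial markers 1 rose (Emcn), with sums of 25309 to 29906 and 27010 to 32190. Of 8 cardiomyocyte markers 2 fell (Myh6 and Actc1), with sums of 692997 to 771113 and 544580 to 636264. Smooth muscle and mural markers had 1 of 8 lower (Cnn1) and sums of 16168 to 17272 and 8580 to 12344, and macrophage markers 2 of 8 higher (Cx3cr1 and Ptprc) and sums of 1204 to 1287 and 1286 to 1613. Such sums follow the highest genes of a list. Control and knockout means were 5238 and 1569 for Cnn1, 139844 and 79505 for Myh6, and 187753 and 130892 for Actc1. They were 6914 and 4708 for Tagln and 208894 and 212619 for Myh7, both picked with their values in view. Of the smooth muscle list 6 genes were below 0 and 2 above, and of the cardiomyocyte list 7 and 1. Tagln and Cnn1 were the highest genes of the smooth muscle list in controls. In that list Myh11 was at 11 to 26, Rgs5 at 17 to 38 and Kcnj8 at 12 to 44 over all libraries. The 2 genes above 0 were Pdgfrb and Kcnj8 (0.16 and 0.81, limma adjusted p = 0.514 and 0.183). Whether the lower sum reflects fewer smooth muscle or mural cells was not tested. None of 8 erythroid markers passed (sums of 58161 to 161234 and 123417 to 169452), and none of 4 Schwann and neural crest markers (620 to 704 and 602 to 859), of which Foxd3 was at 7 or less. Of 5 tested liver and lung markers none passed (15 to 36 and 26 to 35). Of the calls in this paragraph, those of Stard10 (without control 3), Nr2f1 and Ptprc (without control 3 or double knockout 3), Cx3cr1 (without control 1 or 3 or double knockout 2 or 3) and Emcn (without control 1, 2 or 3 or double knockout 2 or 3) were lost with 1 library left out, with limma adjusted p up to 0.203. Without the robust option, 6 of the 11 calls were lost (Myl7, Nr2f1, Stard10, Actc1, Emcn and Cx3cr1, limma adjusted p from 0.0603 to 0.143). Without both libraries numbered 3 only that of Cnn1 was left (limma adjusted p = 0.0280).

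Among genes responding to TGF-beta and genes linked to trabeculae and Bmp10, those that passed were higher in the knockouts, and others were lower without passing. Of all tested genes 2.31% were called higher and 2.55% lower. Of 14 TGF-beta response genes 2 rose and 0 fell, with a median of 0.21, 9 above 0 and 5 below. Timp3, named after its values were seen, was lower without passing (-0.36, limma adjusted p = 0.082). Ctgf, a matricellular protein gene that also responds to YAP, was at 1752, 1956 and 1699 in controls and 2628, 3260 and 2685 in knockouts. Its rise of 0.66 ± 0.10 (limma adjusted p = 0.000286) was kept with each library left out, and was lost without both libraries numbered 3 (limma adjusted p = 0.163). Cdkn1a, a cell cycle inhibitor that also responds to p53, rose from 411 ± 19.2 to 545 ± 39.7 (limma adjusted p = 0.0211), a call kept only without double knockout 3 among the 6 fits that left out 1 library (limma adjusted p up to 0.128). Of 17 trabecular and Bmp10-linked genes 3 rose and 0 fell, with a median of 0.13, 10 above 0 and 7 below. Nearest the threshold without passing was Tbx5 (-0.42, limma adjusted p = 0.0607). Next were Hey2 (0.29, limma adjusted p = 0.063) and Mycn (-0.28, limma adjusted p = 0.08), all 3 named after their values were seen. Tcap, a titin-binding protein of the Z-disc, rose from 1155 ± 95.3 to 1641 ± 254 (limma adjusted p = 0.00751, lost without control 1 at 0.0879). Nrg1, the endocardial ligand of ErbB receptors, rose from 266 ± 60.8 to 422 ± 49.9 (limma adjusted p = 0.01995, lost without control 3 or any 1 knockout library, up to 0.0823). The call of Nrg1 was also lost with the GC and length trend removed (limma adjusted p = 0.0841). Nppb, a natriuretic peptide gene, rose from 2796 ± 271 to 3552 ± 365 (limma adjusted p = 0.0450, kept only without double knockout 1 among the 6, up to 0.211).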

How the data were processed

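RNA of 6 heart libraries was sequenced with a stranded polyA preparation and single-end reads, per the labels' protocols. Tools named without role or order in the submitters' processing notes are STAR 2.4.2a, featureCounts 1.5.0, Trimmomatic, DESeq and DESeq2, with the build mm10. The deposited values are a score: read counts scaled by the authors with 1 factor per library and rounded, as read from evenly missing whole numbers in 3 libraries. Single reads cannot be recovered, so no count model was used. Genes with a mean of at least 1 in 1 genotype were tested with limma 3.58.1 (R 4.3.3) on log2(value + 1), with variance trend and robust moderation, two-sided. Low genes carry the spread of few reads, and fold changes on this scale understate theirs. Coordinates and exon lengths came from GENCODE M21 (GRCm38), which held 99.3% of identifiers. Alternatives covered scaling (trimmed-mean and median-of-ratios factors), filters, pseudocounts, weights, GC content and length, thresholds and libraries. A few marker genes of the lists are not reported here. The 10 genes and all lists were chosen with earlier results of these data known. Named were the 10 genes, the targeted genes, up to 6 passing genes per pathway list with the lowest adjusted p, or the 2 most abundant of a list with none. Others were picked with their values in view, which the text states.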

Additional observations from a re-analysis of the deposited data

How the results depend on the processing

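The count of the 10 genes past the threshold stayed at 0 in each direction except in 4 settings: 1 was higher with no low-value filter (Bmp10), and over the fits without 1 library 0 to 1 were higher (Bmp10, without double knockout 2) and 0 to 1 lower (Bmp2, without double knockout 1 or 3). Over all genes, 618 higher and 681 lower calls became 963 and 955 with no low-value filter, 144 and 206 without the robust option, 14 and 24 without both libraries numbered 3, 367 and 372 with an absolute log2 fold change of at least 0.5, and 225 and 290 at an adjusted p under 0.01. Leaving out 1 library gave 186 to 608 higher and 234 to 739 lower. The cause was not tested; the fits without libraries have fewer samples. Log2 fold changes turned sign with the GC and length trend removed, with or without the block, for Bmp5 (-0.104 in both), Tgfb1 (0.0241 in both) and Smad6 (0.0235 in both), and without both libraries numbered 3 for Smad6 (0.0484). They also turned without 1 library: over those fits Bmp4 ran from -0.0906 to 0.470 (below 0 without double knockout 2), Bmp5 from -0.102 to 0.133 (below 0 without control 2 or double knockout 1), Tgfb1 from -0.107 to 0.0279 (above 0 without control 2) and Smad6 from -0.187 to 0.0505 (above 0 without double knockout 3). None of these values passed. Bmp2, Bmp7, Bmp10, Tgfb2, Tgfb3 and Smad7 kept their direction in all 19 alternatives. Some of the 19 cannot change the difference: the stricter threshold, the filters, the robust option and the replicate block alone. No source used here says what the replicate numbers share. Deviations of same-numbered libraries correlated at 0.05, 0.07 and 0.33, and control 1 correlated best with knockout 2. The replicate block gave 674 higher and 681 lower genes, 730 and 758 with the GC and length trend also removed, and 0 of the 10 in either direction in both fits.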
